A study of Mus musculus with 12 samples.

Results

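C-type natriuretic peptide (CNP) signalling was followed through 5 genes, its ligand Nppc, the receptors Npr2 and Npr3 and the kinases Prkg1 and Prkg2, in cultured mouse chondrocytes. The members were taken by symbol, and all 5 were found among the 17536 genes measured. RNA-seq had been performed on cells of the superficial zone (SFZ) and the deep zone (DZ) of articular cartilage from 5-day-old mice, whose strain is C57BL/6 in the labels and C57BL/6J in the study's methods. R3-Cntl mice were Runx3 fl/fl without Cre, and R3-cKO mice carried Col2a1-Cre with Runx3 fl/fl, so that both genotypes had the floxed alleles. The Cre is driven by the Col2a1 promoter, which is active in cells of the cartilage lineage and is not limited to a zone. SFZ cells were released from the epiphyses by a short enzyme treatment, DZ cells by the digestion that followed, and both were grown in monolayer before RNA was taken. Each genotype and zone had 3 libraries, 12 in all, so the p-values below measure only the spread between these libraries. The study describes cells of both zones from individual littermate mice of each genotype, but neither it nor the labels tie a library number to an animal. Where library number as a block changed the call of a member, the value from that fit is given beside it. In fits over both genotypes this block was library number within genotype.

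CNP is a small secreted peptide closed into a ring by a disulfide bond between a pair of cysteines. It binds natriuretic peptide receptor B, encoded by Npr2, a membrane guanylyl cyclase that turns GTP into cGMP. Natriuretic peptide receptor C, encoded by Npr3, lacks the cyclase domain and takes natriuretic peptides into the cell for degradation. In chondrocytes cGMP acts through the cGMP-dependent protein kinases, type I from Prkg1 and type II from Prkg2, and the pathway is best known for promoting growth of the long bones and for opposing the FGFR3 and MAP kinase cascade in the growth plate.

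The ligand is shown by the stretch of Nppc that encodes its active form, since its transcript was at the limit of detection in every library while its receptor was not. Nppc (Entrez 18159) lies at chr1:88562866-88567147 on the minus strand of mm9, and the 66 bases below, within a coding exon at chr1:88566242-88566307, are the last 22 of its 126 codons before the stop. They encode the mature peptide CNP-22. The capitals mark the 2 cysteine codons that close the ring, at codons 6 and 22 of this stretch, so that the second cysteine is also the last residue of the peptide and the ring spans 17 residues.

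Nppc, CNP-22 coding bases: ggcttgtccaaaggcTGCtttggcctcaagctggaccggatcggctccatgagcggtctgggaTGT

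The labels were checked first. The library sums ranged from 392200 to 429200 FPKM, which is fragments scaled to transcript length and library depth. This unit was inferred for the deposited values, which were taken as also scaled between libraries. In SFZ cells Runx3 stood at 10.73, 5.98 and 6.65 FPKM for R3-Cntl, libraries 1 to 3, and at 11.83, 9.07 and 3.42 FPKM for those labelled R3-cKO. The DZ values were 12.67, 12.65 and 7.66 FPKM for R3-Cntl, beside 15.95, 12.66 and 8.14 FPKM for those labelled R3-cKO. The genotypes overlapped in both zones, and a value for the whole gene does not show which exons it comes from. The Y-linked gene Ddx3y was at 0 to 0.02 FPKM in the 4 libraries of numbers 2 and 3 labelled R3-cKO and at 4.96 to 21.09 FPKM in the 8 others, so genotype cannot be told apart from sex in the libraries of those numbers. Of 5 superficial zone markers 3 were called as lower in DZ cells, Thbs4, Cd34 and Prg4. The sum of all 5 was 75.8 to 146.3 FPKM in SFZ and 5.86 to 13.06 FPKM in DZ libraries. In SFZ libraries most of it came from Thbs4 and Cd34, which did not overlap between zones. Within a genotype, 32.4% of genes tested did not overlap between zones in R3-Cntl and 21.0% in R3-cKO cells. Prg4, which encodes the lubricant lubricin, overlapped, at 2.13 to 22.24 FPKM in SFZ and 1.22 to 5.72 FPKM in DZ libraries, as did Erg and Vit. The study reports less Prg4 in R3-cKO SFZ cells. Here SFZ libraries 1 to 3 held 22.24, 8.38 and 7.13 FPKM for R3-Cntl and 6.95, 2.47 and 2.13 FPKM for R3-cKO. These did not overlap, as for 2.4% of genes tested. The DZ values overlapped, at 1.39, 1.22 and 1.47 FPKM for R3-Cntl and 5.72, 1.32 and 2.14 FPKM for R3-cKO. The sum of 7 chondrocyte markers was 4670 to 13470 FPKM in SFZ and 14850 to 32700 FPKM in DZ libraries.

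Nppc was close to absent. It was listed at 0 in 7 of the 12 libraries. The 5 others were R3-Cntl SFZ library 1 at 0.03 FPKM, R3-Cntl SFZ library 2 and R3-cKO SFZ library 2 at 0.07 FPKM each, and R3-Cntl DZ library 2 and R3-cKO DZ library 3 at 0.04 FPKM each. The steps between low values of other short genes placed the depth of a library at an estimated 27300000 to 31600000 fragments, at which 1 fragment on the Nppc transcript of 1043 bases was worth 0.0315 to 0.0365 FPKM. By that estimate the 12 libraries held 7 Nppc fragments together, and no library held more than 2. A library listed at 0 allows up to 3 fragments, or 0.0945 to 0.109 FPKM, and no difference between groups was detectable at this depth. These limits cover counting error only. Nppc did not reach 1 FPKM in at least 3 libraries and entered no test.

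The other members were expressed in every library. Of the 5 members, 4 passed the filter of 1 FPKM in at least 3 libraries. Their levels, per transcript length, had medians over the 12 libraries of 42.7 FPKM for Npr2, 16.3 FPKM for Npr3, 8.6 FPKM for Prkg1 and 8.5 FPKM for Prkg2. Npr2 was above the other members in every library, and the ranges of Npr3, Prkg1 and Prkg2 overlapped. The members differed most in how steady they were. The highest library exceeded the lowest by 1.67 times for Npr2, 2.79 times for Prkg1, 8.82 times for Prkg2 and 23.8 times for Npr3.

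**Figure D1:**
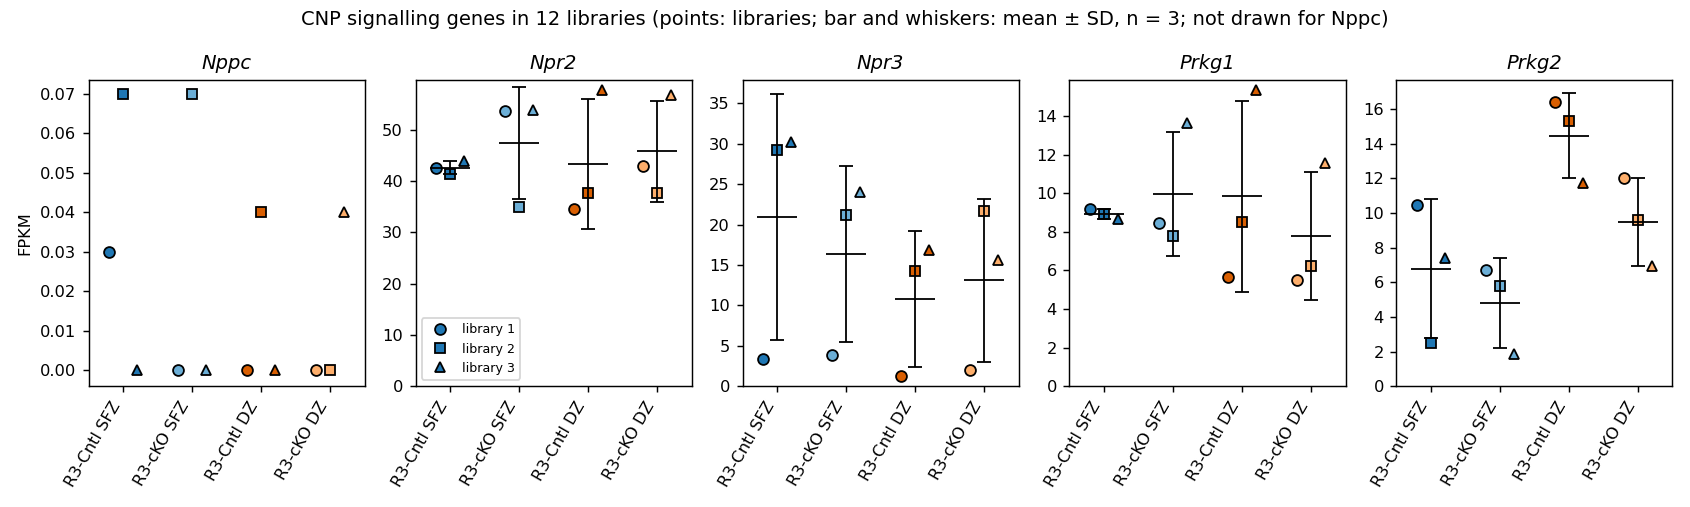
FPKM of Nppc, Npr2, Npr3, Prkg1 and Prkg2 in each library, with circles, squares and triangles for libraries 1, 2 and 3 and bars for the mean ± SD of 3 libraries (not drawn for Nppc). Each panel has its own axis. Nppc stays at or below 0.07 FPKM, the circles of Npr3 lie between 1.27 and 3.88 FPKM in every group, and Prkg2 is higher in DZ than in SFZ cells of the same genotype.

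Npr2 (Entrez 230103, chr4:43644807-43664116, plus strand, mm9), the signalling receptor of CNP, was steady across zones and genotypes. The SFZ levels were 42.50, 41.39 and 43.99 FPKM for R3-Cntl libraries 1, 2 and 3, against 53.69, 34.91 and 53.81 FPKM for those labelled R3-cKO. The DZ levels were 34.55, 37.64 and 57.82 FPKM for R3-Cntl, against 42.98, 37.72 and 56.79 FPKM for those labelled R3-cKO. All groups overlapped. The R3-Cntl SFZ libraries lay within a narrow span (42.6 ± 1.31 FPKM, SD, n = 3), and each of the other groups had a wider spread. Over both genotypes the DZ minus SFZ difference was −0.03 on the log2(FPKM + 1) scale, with a 95% interval of −0.38 to 0.33 (limma, adjusted p = 0.919), and its sign turned with another scaling of the libraries.

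Npr3 (Entrez 18162, chr15:11769651-11835429, minus strand, mm9), the clearance receptor, fell into separate low and high levels that followed neither zone nor genotype. SFZ libraries 1, 2 and 3 of R3-Cntl held 3.41, 29.27 and 30.20 FPKM. The libraries labelled R3-cKO SFZ held 3.88, 21.23 and 24.05 FPKM. R3-Cntl DZ libraries held 1.27, 14.28 and 16.89 FPKM, and R3-cKO DZ libraries held 1.97, 21.70 and 15.68 FPKM. In every group the library numbered 1 was the low library. The 4 libraries of that number held 2.63 ± 1.22 FPKM (SD, n = 4) and the 8 others 21.7 ± 5.97 FPKM (SD, n = 8), and the lowest of the 8 was 3.68 times the highest of the 4. The labels do not say what libraries of the same number share.

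A test of library number was added after these values were seen, with group and number as terms over all 12 libraries (limma, F test). Npr3 had the lowest p of all 11765 genes tested. It was 2.66 higher on the log2(FPKM + 1) scale in number 2 than in number 1, and 2.66 higher in number 3 (adjusted p = 4.29e-04). Of all genes tested, 489 were called for library number, or 4.16%, and Npr3 was the only member among them. In 2.97% of genes tested the 4 libraries of number 1 lay outside the range of the 8 others, below it for 93 genes and above it for 256, and only 1 other gene had a wider gap than Npr3. Libraries of a number may share animals between zones, which would make this p too small. With the zones averaged, leaving 6 values, the difference was again 2.66 and the adjusted p was 0.0785, with Npr3 at rank 3 among all genes and 0 genes called. At an unadjusted p the value for Npr3 in that fit was 2.67e-05. Within SFZ libraries alone the difference was 2.54 (adjusted p = 0.602, 0 genes called) and within DZ libraries alone it was 2.79 (adjusted p = 0.0124), where 1817 genes were called and Npr3 was at rank 18.

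The low Npr3 libraries were compared with the high ones for the makeup of the cultures. Of 36 tested markers in the 10 lists, 2 were called for library number, or 5.56% beside 4.16% of all genes, both among the 7 chondrocyte markers. The order of the libraries within groups was not tested. The 7 chondrocyte markers had their highest sum in library 1 in 3 of 4 groups, at 13470 FPKM beside 4670 and 8964 FPKM in R3-Cntl SFZ, for example, the exception being R3-cKO DZ. The markers called were Matn1 and Comp, which encode cartilage matrix proteins (limma, adjusted p = 0.0382 and 0.0375). Against number 1, Comp was at −1.12 in number 2 and −0.42 in number 3 on the log2 scale. Matn1 was at −1.76 in number 2 and 0.12 in number 3, so it did not split the libraries as Npr3 did. The 6 fibroblast and synovial markers had their lowest sum in library 1 in 3 of 4 groups, and 0 of the 6 were called. One of them, the collagen gene Col1a1, was at 24.40 FPKM in R3-Cntl DZ library 1 against 241.74 and 960.9 FPKM in libraries 2 and 3, and at 52.76 FPKM against 244.21 and 576.37 FPKM in R3-cKO DZ cells, but in R3-cKO SFZ cells library 1 held 1936.75 FPKM against 1849.22 and 4793.07 FPKM. Another, the surface antigen gene Thy1, was highest in library 1 in R3-cKO DZ cells, at 3.61 FPKM against 1.53 and 1.12 FPKM. The 5 endothelial markers were highest in library 1 in all 4 groups, at 0.23 to 5.5 FPKM in sum. Skeletal muscle and adipocyte markers were lowest there in 3 of 4 groups each. The part of these cells in the level of Npr3 was not tested. In a bulk sample fewer cells that express a gene and less RNA per cell cannot be told apart. The 4 libraries of number 1 all carried Ddx3y, at 10.66 to 16.99 FPKM. Among numbers 2 and 3 the libraries without Ddx3y held 15.68 to 24.05 FPKM of Npr3 and those with it 14.28 to 30.20 FPKM, and the part of sex was not tested.

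**Figure D2:**
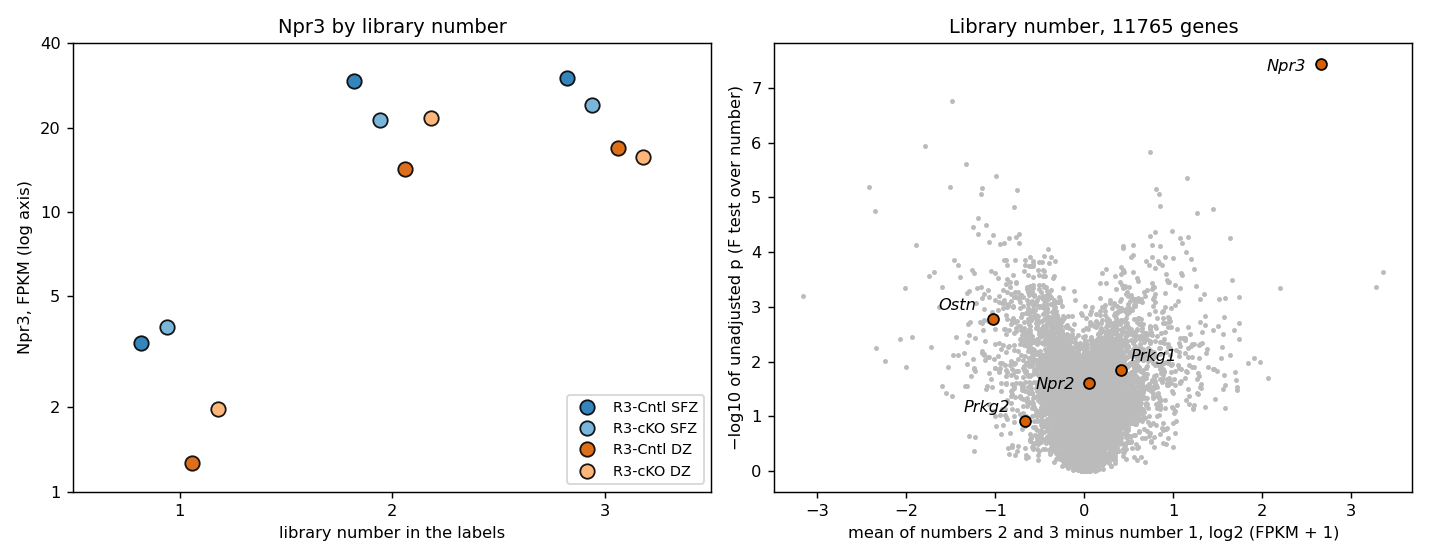
Left, FPKM of Npr3 on a log axis against the library number in the labels, with the 4 groups in colours. Right, the difference of numbers 2 and 3 from number 1 on the log2(FPKM + 1) scale against −log10 of the unadjusted p for 11765 genes in grey, with 4 members and Ostn marked. Number 1 lies between 1.27 and 3.88 FPKM, the 8 other libraries lie at 14.28 FPKM or above, and Npr3 is at the top of the right panel.

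The ratio of the receptors carried the split of Npr3 by library number, since Npr2 was steady, and is not a separate result. Per transcript length, Npr2 exceeded Npr3 by 12.5 to 27.2 times in the 4 libraries of number 1 and by 1.41 to 3.62 times in the 8 others. Within a number the ratio was also higher in DZ than in SFZ cells of the same genotype in every pair. For R3-Cntl it was 12.5, 1.41 and 1.46 in SFZ libraries 1 to 3 and 27.2, 2.64 and 3.42 in DZ libraries 1 to 3. For R3-cKO it was 13.8, 1.64 and 2.24 in SFZ and 21.8, 1.74 and 3.62 in DZ libraries. These ratios were not tested.

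Npr3 was lower in DZ than in SFZ cells in 5 of 6 pairs of the same genotype and number, the exception being R3-cKO libraries 2, at 21.70 FPKM in DZ and 21.23 FPKM in SFZ cells. Its zone difference over both genotypes was −0.67 ± 0.79 (SE) on the log2 scale and was not called (limma, adjusted p = 0.574). With 1 library left out it ranged from −1.14 to −0.19. The 95% interval of the full fit ran from −2.42 to 1.08, with the libraries of number 1 far from the others within each group. With library number within genotype as a block the same difference was called (limma, adjusted p = 0.00685). In that fit 33.6% of genes tested were called. Within R3-Cntl cells the difference was −0.92 and also called with the block (limma, adjusted p = 0.0305, 7.33% of genes called). Within R3-cKO cells it was −0.42 and was not called with the block (limma, adjusted p = 0.175). The numbers do not pair all R3-Cntl libraries of the 2 zones, whose same-number correlations were 0.58, 0.11 and −0.15, which limits both calls.

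Prkg1 (Entrez 19091, chr19:30643728-31839312, minus strand, mm9) encodes the type I kinase, whose substrates include regulators of smooth muscle tone. SFZ cells held 9.21, 8.93 and 8.67 FPKM when R3-Cntl and 8.45, 7.79 and 13.63 FPKM when labelled R3-cKO. DZ cells held 5.67, 8.53 and 15.33 FPKM when R3-Cntl and 5.50, 6.24 and 11.59 FPKM when labelled R3-cKO. The groups overlapped, and library 3 was the highest in each group except R3-Cntl SFZ. The zone difference over both genotypes was −0.16 with a 95% interval of −0.69 to 0.37 (limma, adjusted p = 0.665), and its sign turned with quantile normalization. It was 0.03 within R3-Cntl and −0.35 within R3-cKO cells, the latter with a 95% interval of −1.11 to 0.41 (limma, adjusted p = 0.690). With library number as a block the R3-cKO interval was −0.61 to −0.08 (limma, adjusted p = 0.113).

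Prkg2 (Entrez 19092, chr5:99358792-99466370, minus strand, mm9) encodes the type II kinase, the isoform tied to hypertrophic differentiation in the growth plate, and it was the member called between zones with and without library number as a block. For R3-Cntl the SFZ level was 10.44, 2.50 and 7.41 FPKM in libraries 1, 2 and 3, and the DZ level was 16.41, 15.30 and 11.71 FPKM. Those labelled R3-cKO held 6.74, 5.81 and 1.86 FPKM in SFZ and 12.00, 9.59 and 6.92 FPKM in DZ cells. Every DZ library was above every SFZ library of its genotype. Prkg2 was therefore higher in DZ cells in 6 of 6 pairs of the same genotype and number. Only 2.38% of genes tested had DZ above SFZ without overlap in both genotypes. Between genotypes the zones did overlap, since R3-Cntl SFZ library 1 exceeded the R3-cKO DZ libraries 2 and 3.

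Over both genotypes Prkg2 was at 5.79 ± 3.21 FPKM in SFZ and 12.0 ± 3.52 FPKM in DZ libraries (SD, n = 6 each), a difference of 1.05 ± 0.32 (SE) on the log2(FPKM + 1) scale with a 95% interval of 0.33 to 1.76 (limma, adjusted p = 0.0445). It was the only member called without a block for library number. With library number within genotype as a block, 33.6% of genes tested were called. In that fit Npr3 was called as well and Prkg2 had an adjusted p of 0.0193 (limma). Of all genes tested, 20.6% were called in this comparison and 3.82% were called as higher in DZ cells, and the median gene was at −0.14. After quantile normalization the median was at 0.04 and the split of called genes turned from 450 higher and 1974 lower to 1086 higher and 781 lower, with Prkg2 called in either case. The exact two-sided permutation test of Prkg2, with zones exchanged within genotypes, gave p = 0.005, the smallest it can give. Any gene without overlap in both genotypes, in the same direction, must give this value. The call lay near its threshold. It was lost, at adjusted p = 0.0551 to 0.0992, when any of 9 libraries was left out, namely R3-Cntl SFZ libraries 2 and 3, R3-cKO SFZ library 3 and each of the 6 DZ libraries, and the difference then ranged from 0.80 to 1.14. Without the 4 libraries of number 1 the difference was 1.23 (adjusted p = 0.131).

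Within R3-Cntl libraries the zone difference of Prkg2 was 1.14 ± 0.42 (SE; limma, adjusted p = 0.148) and within R3-cKO libraries it was 0.95 ± 0.41 (SE; limma, adjusted p = 0.367). These adjusted p-values were 0.124 and 0.0666 with library number as a block. With 1 library left out the differences ranged from 0.64 to 1.5 in R3-Cntl and from 0.5 to 1.22 in R3-cKO cells. Without the block no member was called in either genotype. Of all genes tested, 1.24% were called in R3-Cntl cells and 0.0176%, or 2 genes, in R3-cKO cells. The counts were 831 and 352 genes with library number as a block, or 7.33% and 3.11%. The groups did not overlap for 32.4% of genes in R3-Cntl and 21.0% in R3-cKO cells, and Prkg2 was the only member among them in either genotype. At 3 against 3 libraries an exact permutation test cannot go below p = 0.1.

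The makeup of the cells also differed between zones. All 7 chondrocyte markers were called as higher in DZ cells. Of the 6 fibroblast and synovial markers 5 were called as lower in DZ cells, with a summed level of 2277 to 6229 FPKM in SFZ and 55.5 to 1250 FPKM in DZ libraries, and all 3 tendon markers were called as lower (35.7 to 122.6 FPKM and 6.22 to 19.52 FPKM). The 5 growth plate hypertrophic markers summed to 347.0 to 834.7 FPKM in SFZ and 630.7 to 1508 FPKM in DZ libraries, with none called. Of 4 tested macrophage markers 3 were called as lower in DZ cells, with a sum over all 5 of 2.81 to 33.38 FPKM in SFZ and 0.61 to 4.71 FPKM in DZ libraries. The 5 endothelial markers summed to 0.53 to 5.5 FPKM in SFZ and 0.05 to 0.37 FPKM in DZ libraries, and none was high enough to be tested. Among all libraries Prkg2 was lowest in R3-Cntl SFZ library 2 and R3-cKO SFZ library 3, at 2.50 and 1.86 FPKM. The fibroblast and synovial sum was highest in the same libraries, at 4824 and 6229 FPKM, as were the tendon and adipocyte sums. R3-Cntl SFZ library 2 also had the highest sum of skeletal muscle markers, at 58.5 FPKM. The part of these cells in the level of Prkg2 was not tested.

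**Figure D3:**
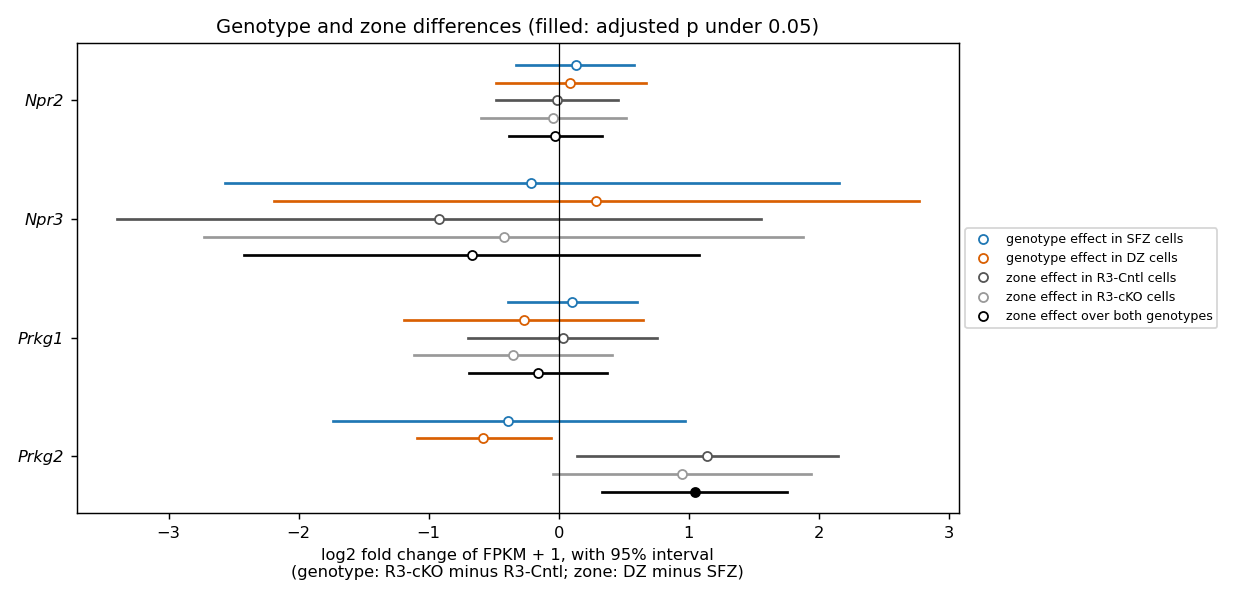
Differences of Npr2, Npr3, Prkg1 and Prkg2 on the log2(FPKM + 1) scale with 95% intervals, for the genotype (R3-cKO minus R3-Cntl) and the zone (DZ minus SFZ). Filled points have an adjusted p under 0.05 in fits without a block for library number. Prkg2 over both genotypes, at 1.05, is the only filled point, and the intervals of Npr3 are the widest.

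The balance of the kinases was followed in the same way and was not tested. Per transcript length the ratio of Prkg1 to Prkg2 was 0.88, 3.57 and 1.17 for R3-Cntl SFZ cells, against 0.35, 0.56 and 1.31 for R3-Cntl DZ cells. It was 1.25, 1.34 and 7.33 in R3-cKO SFZ, and 0.46, 0.65 and 1.68 in R3-cKO DZ libraries. The median ratio was 1.3 in SFZ and 0.60 in DZ libraries, and the zones overlapped. R3-Cntl libraries 3 were the exception to a lower ratio in DZ cells.

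The genotypes were then compared within each zone, by their labels. Runx3 itself was not lower in libraries labelled R3-cKO, at 8.11 FPKM on average against 7.79 FPKM in SFZ and 12.25 against 10.99 FPKM in DZ cells, and those of numbers 2 and 3 also differed from R3-Cntl by Ddx3y. No member was called. In SFZ cells 0 of 11537 genes, or 0%, were called (limma; 34 at an unadjusted p under 0.05), and in DZ cells 0 of 11091, or 0% (404 at an unadjusted p under 0.05, or 3.64%). With library number as a block the calls were again 0, with 51 genes in SFZ and 1830 in DZ cells at an unadjusted p under 0.05. The groups did not overlap for 2.4% of genes in SFZ and 8.03% in DZ cells, and no member was among them. For Npr2 the R3-cKO minus R3-Cntl difference was 0.13 (95% interval −0.33 to 0.58) in SFZ and 0.09 (−0.48 to 0.67) in DZ cells. For Prkg1 it was 0.10 (−0.39 to 0.60) in SFZ and −0.27 (−1.19 to 0.65) in DZ cells. With library number as a block the DZ interval of Prkg1 was −0.54 to −0.0 (limma, adjusted p = 0.303). Its R3-cKO level there was 0.97, 0.73 and 0.76 times the R3-Cntl level in libraries 1, 2 and 3. The intervals of Npr3, with number 1 far below the others, ran from −2.57 to 2.16 in SFZ and −2.19 to 2.77 in DZ cells. Within numbers the R3-cKO level of Npr3 was 1.55, 1.52 and 0.93 times the R3-Cntl level in DZ libraries 1, 2 and 3, and 1.14, 0.73 and 0.80 times in SFZ libraries. With the block its difference in DZ cells was 0.29 with a 95% interval of −0.09 to 0.66 (limma, adjusted p = 0.389), and in SFZ cells, where the numbers do not pair the libraries, it was −0.21 with an interval of −0.64 to 0.23 (adjusted p = 0.999).

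Prkg2 had the lowest p of the members between genotypes. In DZ cells the R3-cKO level was 0.73, 0.63 and 0.59 times the R3-Cntl level in libraries 1, 2 and 3, and the mean was 14.5 ± 2.46 FPKM for R3-Cntl, beside 9.5 ± 2.54 FPKM for R3-cKO (SD, n = 3 each). The groups overlapped by R3-cKO library 1, at 12.00 FPKM, and R3-Cntl library 3, at 11.71 FPKM. The difference was −0.58 ± 0.22 (SE; limma, unadjusted p = 0.0344, adjusted p = 0.999), and 1.15% of genes tested were lower in R3-cKO cells at an unadjusted p under 0.05. With library number as a block, by which the DZ libraries of both genotypes pair, its 95% interval was −0.80 to −0.35 and its adjusted p was 0.147. The exact permutation test, which does not use the pairs, gave p = 0.2. In SFZ cells the difference was −0.39 with a 95% interval of −1.74 to 0.97, and the ratios of libraries 1, 2 and 3 were 0.65, 2.32 and 0.25. The difference of the genotype effect between zones was called for 0 of 11765 genes (limma interaction, 0%, with 99 genes at an unadjusted p under 0.05), and the interaction of Prkg2 was −0.19 (95% interval −1.62 to 1.24).

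The other genes of the pathway were described by 5 lists, of which all 41 genes were found. Among other ligands, Nppa and Nppb, which encode the atrial and brain natriuretic peptides, reached at most 0.18 and 0.10 FPKM. Osteocrin, encoded by Ostn, binds the clearance receptor and can thereby spare CNP, and it was expressed at 5.38 to 41.13 FPKM. SFZ libraries 1, 2 and 3 held 35.96, 16.45 and 21.58 FPKM for R3-Cntl, and 41.13, 15.27 and 28.96 FPKM for R3-cKO. DZ libraries held 34.05, 20.25 and 17.12 FPKM for R3-Cntl, and 28.07, 5.38 and 17.01 FPKM for R3-cKO. Library 1 was the highest in each group, where Npr3 was the lowest. Of the 25 tested genes of the lists, 4 were called for library number, or 16.0% beside 4.16% of all genes, a share that rests on 489 genes and was unstable, at 2 to 5152 genes called with 1 library left out and 0 with the zones averaged. Pde3b and Kcnma1, which encode a phosphodiesterase and a potassium channel, were lower in numbers 2 and 3 (−0.42 and −0.61 for Pde3b, −1.13 and −0.97 for Kcnma1, adjusted p = 0.0488 each). Pde5a was higher there, at 0.55 and 0.78 (adjusted p = 0.0495). None of the 4 was called with the zones averaged (adjusted p = 0.228 to 0.266), and each kept its call in only 2 or 3 of 12 fits with 1 library left out. Ostn, the fourth, was called close to the threshold (limma, adjusted p = 0.0488), at −1.34 for number 2 and −0.71 for number 3 against number 1. With 1 library left out it was kept only without library 2 or 3 of R3-Cntl SFZ or library 2 of R3-Cntl DZ cells, and the adjusted p was 0.0542 to 0.159 in the other fits. The ratio of Ostn to Npr3, which carries the split of Npr3 with it, was 10.6 to 26.8 in libraries of number 1 and 0.248 to 1.42 in the others.

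Of the other genes that form cGMP or nitric oxide, 6 of 7 stayed below 1 FPKM in every library. Npr1, the receptor of the atrial peptide, reached 0.30 FPKM, and Gucy1a1, Gucy1a2 and Gucy1b1, which encode subunits of soluble guanylyl cyclase, reached 0.38, 0.35 and 0.43 FPKM. The exception was Nos1, a nitric oxide synthase, at 0.29 to 6.89 FPKM. Its highest values were in library 1 of the DZ cells, at 6.89 FPKM for R3-Cntl and 3.71 FPKM for R3-cKO. Nos1 was the 1 gene of the list that was tested, and it was not called in any comparison between zones or genotypes. Npr2 was thus the only guanylyl cyclase gene among those listed that passed 1 FPKM.

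Between zones, 25 genes of the 5 lists were tested over both genotypes, of which 3 were called as higher and 5 as lower in DZ cells, beside 20.6% of all genes called. With library number within genotype as a block 3 were called as higher and 11 as lower, beside 33.6% of all genes. Ece1, a membrane protease that processes and degrades small peptides, was 1 of 5 tested ligand, processing and degradation genes and had the lowest adjusted p of the 25, at −1.48 on the log2 scale (adjusted p = 0.0054). The list's median was −0.37. Among the genes called only with the block were Ostn (−0.45, adjusted p = 0.0348), the growth factor gene Fgf18 (−0.57, adjusted p = 0.0216) and Ppp1r12a, which encodes a subunit of myosin phosphatase (−0.45, adjusted p = 0.0124), all lower in DZ cells. Neprilysin, encoded by Mme and able to degrade CNP, was at −0.37 (adjusted p = 0.58). The makeup of the cells differed between zones, and its part in the zone differences of the 5 lists was not tested.

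Of 5 tested phosphodiesterases of cGMP, 1 was called as higher and 2 as lower in DZ cells. Pde3a, whose enzyme is inhibited by cGMP, was at 0.55 (adjusted p = 0.00593). Pde5a, which is specific to cGMP, was at −0.77 (adjusted p = 0.0414) and Pde10a was at −0.47 (adjusted p = 0.0103), and neither was called after quantile normalization (adjusted p = 0.150 and 0.184). Pde5a also lost its call with median-of-ratios size factors (adjusted p = 0.0815), a pseudocount of 0.1 (0.0550) and no filter (0.0604). With 1 library left out, Pde5a kept its call only where that was R3-Cntl SFZ library 1, R3-cKO SFZ library 2 or library 3 of either genotype in DZ cells, and its adjusted p was 0.0554 to 0.105 in the other fits. The list's median was −0.35.

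Of 7 tested substrates and partners of the cGMP-dependent kinases, 1 was called in each direction. Sox9, the chondrocyte transcription factor on which the type II kinase acts, was at 0.80 (adjusted p = 0.0123), and Rgs2, a regulator of G-protein signalling that the type I kinase activates, was at −1.77 (adjusted p = 0.0073). Sox9 was measured at 40.06 to 78.31 FPKM in SFZ and at 87.57 to 111.16 FPKM in DZ libraries, without overlap. It was among the 2.38% of genes tested with DZ above SFZ without overlap in both genotypes. Sox9 is also 1 of the 7 chondrocyte markers, all of which were called as higher in DZ cells. The list's median was −0.30.

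In the cascade that CNP opposes, the receptor and a kinase at its end were called in opposite directions. Fgfr3 was measured at 24.37 to 109.19 FPKM in SFZ and at 117.06 to 231.34 FPKM in DZ libraries, without overlap, a difference of 1.53 ± 0.34 (SE; limma, adjusted p = 0.0132). It was among the 2.38% of genes tested with DZ above SFZ without overlap in both genotypes. Mapk3, which encodes the MAP kinase ERK1, was at −0.41 (adjusted p = 0.0294). The list of 7 tested genes had a median of −0.13, beside −0.14 for all genes. With 1 library left out, Mapk3 lost its call without library 2 or 3 of R3-Cntl SFZ, library 1 of either genotype in DZ cells or library 3 of R3-cKO DZ cells (adjusted p = 0.0568 to 0.0826). Mapk3 was not called after quantile normalization (adjusted p = 0.0675) or with median-of-ratios size factors (adjusted p = 0.112). Without the libraries of number 1 the differences were 1.53 for Fgfr3, −1.92 for Rgs2, −0.48 for Pde10a and −0.37 for Mapk3. In that fit, with fewer libraries, none of these was called (limma, adjusted p = 0.135, 0.0979, 0.0791 and 0.141).

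**Figure D4:**
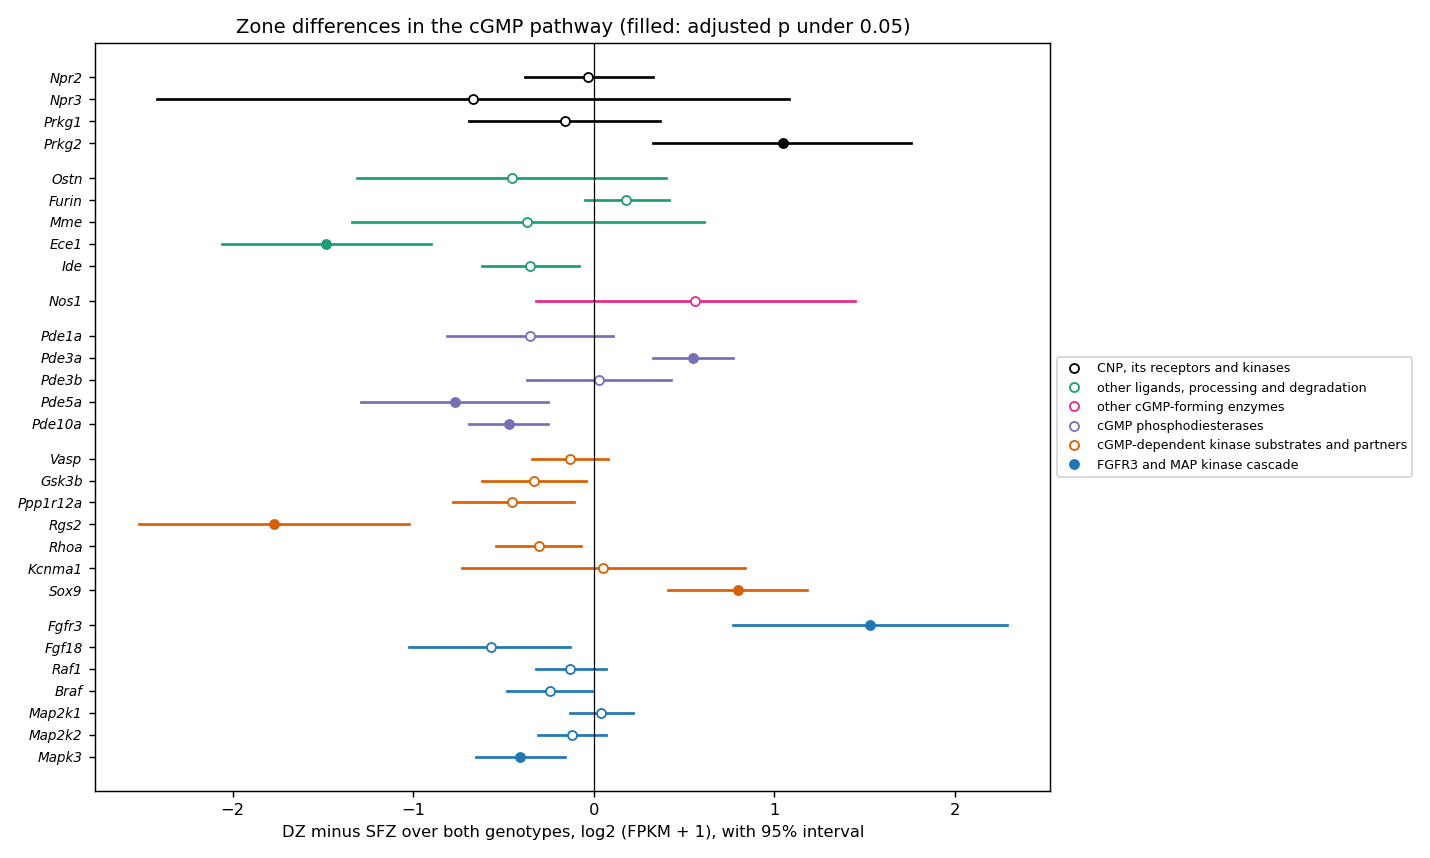
DZ minus SFZ difference over both genotypes on the log2(FPKM + 1) scale, with 95% intervals, for the 29 tested genes of the pathway grouped by role. Filled points have an adjusted p under 0.05 without a block for library number. Fgfr3 at 1.53, Prkg2 at 1.05, Sox9 at 0.80 and Pde3a at 0.55 are filled to the right of 0, and Rgs2 at −1.77 and Ece1 at −1.48 lie farthest to the left.

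Between genotypes none of the tested genes of the 5 lists was called in either zone. The list of cGMP-forming enzymes was Nos1 alone, at 0.31 in SFZ and −0.67 in DZ cells. The medians of the 4 other lists ran from −0.07 to 0.17 in SFZ cells, beside −0.01 for all genes, and from −0.01 to 0.31 in DZ cells, beside 0.05 for all genes.

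The members did not vary together as a group. Over the 12 libraries, which share groups and library numbers, Pearson's r on the log2 scale was 0.77 between Npr2 and Prkg1, −0.57 between Npr3 and Prkg2, and between −0.43 and 0.51 for the 4 other pairs. The genes whose pattern was most like each member were taken from the 11359 genes whose mean reached 1 FPKM. For Npr2 they were Dcun1d4, Sil1 and Cpq (r = 0.99, 0.947 and 0.945). For Npr3 they were Pdia3, Zdhhc20 and Cish (r = 0.967, 0.960 and 0.953), each of which was itself called for library number. For Prkg1 they were Oaz2, Fzd9 and Ube2ql1 (r = 0.946, 0.945 and 0.929), and for Prkg2 they were Nt5e, Mtfr1 and Slc35d1 (r = 0.958, 0.951 and 0.947).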

How the data were processed

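RNA-seq of 12 libraries was analysed, 3 for each genotype and zone. Per the labels and methods, the authors made 100-bp paired-end reads on a BGIseq-500 and mapped them to mm9. The submitters' processing notes name Bowtie 0.12.2, and the counter and annotation are not given in the sources used here. The values deposited by the authors were taken as FPKM scaled between libraries by TMM. The unit was inferred from the values, is not on a log scale and carries neither the quantile normalization nor the log2 CPM that the methods name. Each of the 12 value columns was matched to its library by title, and 0 were left unmapped.

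Values were analysed as log2(FPKM + 1) for genes that reached 1 FPKM in 3 or more libraries of a comparison, with limma 3.58.1 in R 4.3.3 (empirical Bayes, mean-variance trend, Benjamini-Hochberg adjustment over all genes tested). Genes were called at an adjusted p under 0.05. A fold change on this scale understates changes of low genes. The script was tested on simulated data. Exact permutation tests were two-sided. Summaries used pandas 2.3.3 and numpy 2.4.6 under Python 3.11.15.

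No counts were used, so depth was estimated from the steps of low values of 869 single-transcript genes of 500 to 1200 bases. The steps were not exact enough to recover whole reads. Coordinates and the Nppc sequence came from mm9 with GENCODE M1.

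The members, the 5 pathway lists and the 10 marker lists were chosen with earlier results of these data known. Named genes were the members, at most 3 genes of each list with the largest change over both genotypes, the 3 genes most like each member by Pearson's r, and Runx3 and Y-linked genes as checks. Genes of the lists that were too low to test (Nppa, Nppb, Npr1 and the Gucy1 genes), Pde3b and Kcnma1, and the markers Matn1, Comp, Col1a1, Thy1, Prg4, Thbs4, Cd34, Erg and Vit fall outside this rule and were named after their values were seen. Alternatives were pseudocounts of 0.1 and 5, no filter, a mean of at least 10 FPKM, quantile normalization, median-of-ratios size factors, all 12 libraries in 1 model, the library number as a block, each library left out, and, added after seeing the data, removal of number 1. The numbers were checked by correlating deviations from group means over 11359 genes. Same-number libraries of the 2 genotypes in DZ cells correlated at 0.65, 0.78 and 0.69, and those of the 2 zones in R3-cKO cells at 0.42, 0.78 and 0.65, so the numbers pair the libraries of these comparisons. Values are from fits without the block unless the block is named. Over both genotypes the block was library number within genotype, and for the interaction it was library number within zone. The ChIP-seq and Runx2 experiments were not analysed here, and 1 gene of a pathway list is not reported here.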

Additional observations from a re-analysis of the deposited data

How the results depend on the processing

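The calls of genes between genotypes were 0 under every alternative, for members and for all genes. For the zone difference in R3-Cntl cells, 140 genes were called, against 88 with a pseudocount of 0.1, 29 with a pseudocount of 5, 0 without a filter, 8 at a mean of at least 10 FPKM, 4 after quantile normalization, 18 with median-of-ratios size factors, 798 with all 12 libraries in 1 model and 92 without the libraries of number 1. In R3-cKO cells 2 genes were called, against 1 with either pseudocount, 7 without a filter, 0 at a mean of at least 10 FPKM, 167 with all 12 libraries in 1 model and 0 without number 1. Over both genotypes 2424 were called, against 1008 at a mean of at least 10 FPKM and 457 without number 1, where fewer genes or libraries entered the fit. The count of members called there, 1, was 0 with a pseudocount of 0.1 (Prkg2, adjusted p = 0.0513), 0 without a filter (0.0648), 0 without number 1 (0.131) and 0 at a mean of at least 10 FPKM, which Prkg2 did not reach. Library number called 489 genes, against 134 without a filter, 0 in SFZ libraries alone, 1817 in DZ libraries alone and 0 with the zones averaged.

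With library number as a block, 831 genes and 1 member, Npr3 at −0.92 (adjusted p = 0.0305), were called between zones in R3-Cntl cells, and 352 genes and 0 members in R3-cKO cells. Over both genotypes the block was library number within genotype, and 3949 genes and 2 members were called. The members were Npr3 at −0.67 (limma, adjusted p = 0.00685) and Prkg2 at 1.05 (limma, adjusted p = 0.0193). The numbers do not pair all of these libraries, since the R3-Cntl libraries of the 2 zones correlated at 0.58, 0.11 and −0.15 and the SFZ libraries of the 2 genotypes at 0.79, −0.09 and −0.42, and libraries 2 and 3 of R3-Cntl SFZ correlated best with another number. The block changed no other call of a member.

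Small differences changed sign. Npr2 turned to −0.01 between genotypes in DZ cells without number 1, and between zones to 0.08 after quantile normalization, 0.12 with median-of-ratios size factors and 0.11 without number 1. Prkg1 turned to 0.04 after quantile normalization and 0.05 without number 1. The cause was not tested.

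With each library left out in turn, the genes called ranged from 0 to 505 in R3-Cntl cells, 0 to 5 in R3-cKO cells, 1245 to 2796 over both genotypes and 2 to 5152 for library number, and the members called over both genotypes from 0 to 1. Npr3 for library number stayed called in all 12 fits, at 2.60 to 2.79 (adjusted p = 8.82e-04 to 0.00903). Between genotypes the SFZ differences ranged from −1.14 to 0.55 for Npr3, −0.12 to 0.24 for Prkg1 and −0.88 to 0.06 for Prkg2, and the DZ differences from −0.07 to 0.32 for Npr2, −0.67 to 1.19 for Npr3 and −0.57 to 0.08 for Prkg1. Between zones Npr3 ranged from −1.85 to 0.04 in R3-Cntl and −1.18 to 0.48 in R3-cKO cells, Npr2 over both genotypes from −0.14 to 0.04 and Mme from −0.69 to 0.03. The interaction of Prkg2 ranged from −0.64 to 0.31. Where a group was left with 2 libraries its spread was taken from the other groups of the fit as well.

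Taking Spearman's rho in place of Pearson's r, the lowest value among the 3 genes most like a member was 0.867 for Npr2, 0.916 for Npr3, 0.818 for Prkg1 and 0.902 for Prkg2.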
